A study of Mus musculus with 6 samples.

Results

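The genes described here are 10 that set or mark the restraint on T cells, namely the co-inhibitory receptors Ctla4, Pdcd1, Lag3, Tigit, Havcr2 and Btla, the ligands Cd274 and Cd200, and the nuclear factors Tox and Tox2. They were chosen by symbol, and all 10 were found among the 13709 gene rows of a table of bulk RNA-Seq counts. The table held 3 WT and 3 KO samples of CD4+YFP+CD25+ Tregs, the CD4+ T cells that express Foxp3 and restrain other immune cells. WT mice carried Foxp3Cre alone. KO mice were Foxp3Cre Zfp335fl/fl, in which Cre made from the Foxp3 locus removes the floxed Zfp335 gene from Tregs, so both genotypes carried Foxp3Cre and its YFP reporter. Mice were on the C57BL/6 background and 2 weeks old, and they received no treatment that the sources used here describe. The labels named both lymph nodes and spleen as the source of the cells. Neither the number of mice behind a sample nor the independence of the samples was stated, so p-values measure only the spread between these samples, which may be technical.

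A T cell is activated through its receptor and through costimulatory receptors such as CD28, and co-inhibitory receptors oppose that activation. CTLA-4 competes with CD28 for the ligands CD80 and CD86, PD-1 (Pdcd1) is engaged by PD-L1 (Cd274) and PD-L2 (Pdcd1lg2), and TIGIT shares the ligand CD155 (Pvr) with the costimulatory receptor CD226. LAG-3 binds MHC class II, TIM-3 (Havcr2) is a receptor for galectin-9 and other ligands, BTLA binds HVEM (Tnfrsf14), and CD200 is a ligand that signals through the inhibitory receptor CD200R1. TOX and TOX2 are HMG-box DNA-binding proteins known from chronically stimulated T cells. Tregs are known for constitutive CTLA-4, which they use to strip CD80 and CD86 from antigen-presenting cells.

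Total counts ran from 32032631 to 40728419 per sample, and 3 counts corresponded to at most 0.0913 CPM, far below every value of the 10 genes. CPM is the usual depth-scaled unit, which relates the count of a gene to the total of its library after scaling. Zfp335 itself stood at 101, 94.3 and 103 CPM in WT samples 1 to 3 and at 37.0, 37.9 and 40.2 CPM in KO samples 1 to 3, a log2 fold change of -1.37 (with SE 0.07, edgeR adjusted p = 2.14e-05), although 1107 of its exon bases are shared with Pcif1 on the other strand. Foxp3 and Il2ra, the genes behind the sort, and Cd4 were high in every sample, and Foxp3 fell by 0.88 on the log2 scale in KO, or by 0.57, under the 1.5-fold limit, without WT sample 3. The WT sample 3 stood apart from the other samples on the second principal component, with a score of -58.9 against 22.1 and 34.4 in WT samples 1 and 2, and its Foxp3 was 1.72 times their mean. Results that rest on it are therefore given with and without it.

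In KO Tregs, Havcr2 and Cd274 rose and Btla, Cd200 and Tox fell, and the other 5 genes were not called. A call required a change of over 1.5-fold together with p below 0.05 and an adjusted p below 0.1 in edgeR's quasi-likelihood test. By this rule 24.4% of the 13594 genes tested were called in either direction, 11.9% higher and 12.5% lower, a background against which the 5 calls among 10 genes stand. The values of the KO and WT samples did not overlap for 6 of the 10 genes, against 53.8% of all genes tested. The median log2 fold change of the 10 genes was -0.26, beside -0.04 over all genes tested. Because these were bulk samples, fewer cells that express a gene and less RNA per cell cannot be told apart.

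**Figure D1:**
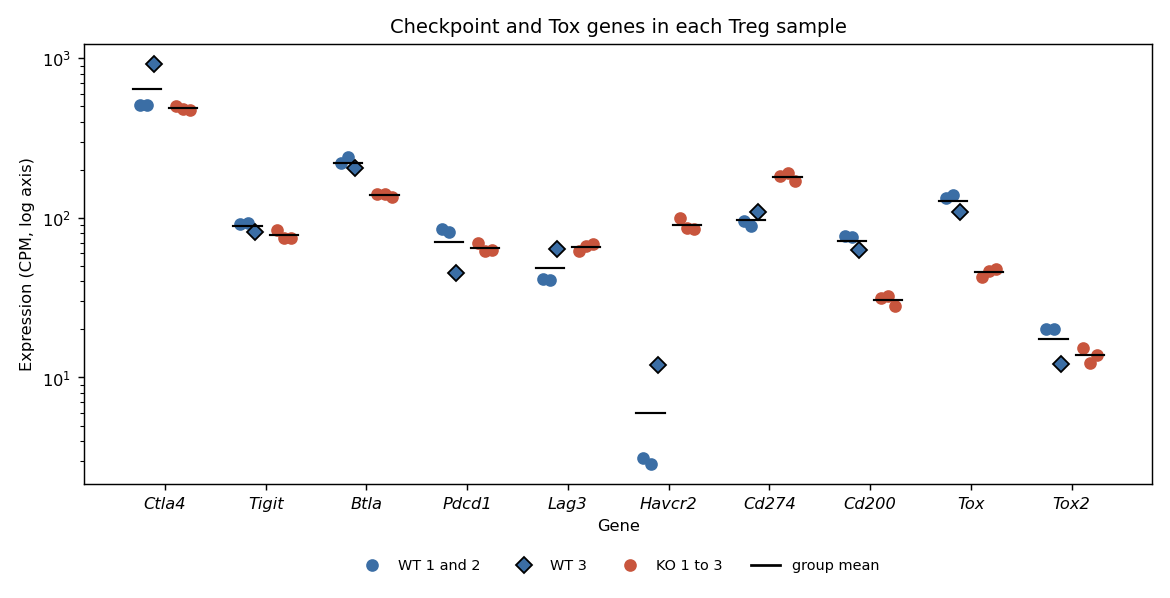
Expression of the 10 genes in each sample, in CPM on a log axis, with WT in blue, KO in red, and the mean of each group as a bar. The WT sample 3, drawn as a diamond, lies apart from the other WT samples for Havcr2, Ctla4, Lag3, Pdcd1 and Tox2, while the KO samples of each gene lie close together.

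Havcr2 (chr11:46454931-46481255, GRCm38.p6) changed most. It encodes TIM-3, a receptor found on Th1 cells, activated CD8+ T cells, some Tregs and many myeloid cells. Its values were 3.12, 2.86 and 11.9 CPM in WT samples 1 to 3 and 100.1, 86.6 and 85.1 CPM in KO samples 1 to 3. The lowest KO sample was far above the highest WT sample, and WT sample 3 was 3.98 times the mean of WT samples 1 and 2. The mean went from 5.97 ± 5.16 to 90.6 ± 8.28 CPM (SD, n = 3 per group), a log2 fold change of 3.93 (with SE 0.52, edgeR adjusted p = 0.000947). Without WT sample 3 the log2 fold change was 4.91 (edgeR adjusted p = 2.34e-13), so the size of the rise, 15.2-fold over all WT samples and 30.3-fold over WT samples 1 and 2, depended on that library.

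Cd274 (chr19:29362107-29388095) encodes PD-L1, a ligand of PD-1 that T cells make as well as receive. It was measured at 95.8, 88.5 and 109 CPM in WT and at 182, 190 and 170.1 CPM in KO. Every KO sample was above every WT sample. The mean rose from 97.7 ± 10.2 to 180.9 ± 10.2 CPM (SD, n = 3 per group), with a log2 fold change of 0.89 (with SE 0.09, edgeR adjusted p = 0.000342). Of its 3622 exon bases 511 are shared with the antisense gene AC119228.1, and whether the counting used strand was not stated, so its counts are uncertain to that extent.

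Myeloid cells also express Havcr2 and Cd274, and most of their listed markers moved in the same direction. The summed level of 13 of the 14 listed myeloid and dendritic cell markers was 54.2 to 65.9 CPM in WT and 96.1 to 107.7 CPM in KO. Of these 13 markers, 7 were called higher and none lower, with Fcgr1 at 0 in WT sample 3. The log2 fold change was positive for 11 and negative for 2. Cst3, the most abundant, averaged 32.3 ± 1.83 CPM in WT and 38.2 ± 2.49 CPM in KO and was not called. Cd68, at 8.95 ± 1.15 and 10.1 ± 1.30 CPM (SD, n = 3 per group), was not called either. Itgam, an integrin subunit that NK cells and activated T cells also carry, averaged 3.02 ± 0.62 CPM in WT and 13.2 ± 1.26 CPM in KO, Itgax went from 0.436 ± 0.342 to 7.03 ± 1.63 CPM, and Lyz2 averaged 10.3 ± 5.25 and 19.5 ± 1.03 CPM (SD, n = 3 per group), a call that was lost on leaving out any sample other than WT sample 2. The summed NK markers were at 3.78 to 5.89 CPM in WT and 15.4 to 17.3 CPM in KO, with 3 of the 4 called higher. Most of that sum was Eomes, which averaged 2.31 and 11.3 CPM and is also listed below among the exhaustion-linked factors. Klrb1c averaged 1.65 and 3.48 CPM, and Ncr1, at 0.384 and 0.940 CPM, was not called. The summed CD8 markers overlapped between the groups. Cd8a averaged 1.86 and 3.71 CPM in WT and KO, and the more abundant Cd8b1 9.16 and 8.69 CPM. S100a8 and S100a9, listed as neutrophil markers, were at 0 in all WT samples and at 1.30 to 2.82 CPM in KO. According to the study, single-cell RNA-Seq of Tregs from younger mice held a subset, more frequent in KO, with high S100a8 and S100a9. The part of myeloid, NK, CD8+ and neutrophil cells in the rise of Havcr2 and Cd274 was not tested.

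Cd200 and Btla are neighbours on chromosome 16 and both fell. BTLA is an immunoglobulin-like receptor whose tail recruits the phosphatases SHP-1 and SHP-2. Btla (chr16:45223705-45252895) was at 220, 241 and 204 CPM in WT and at 140.5, 141 and 136 CPM in KO, so the groups did not overlap. The mean went from 222 ± 18.8 to 139 ± 2.80 CPM (SD, n = 3 per group), a log2 fold change of -0.67 (with SE 0.08, edgeR adjusted p = 0.000552). The fall was no longer called when the fold itself was tested against 1.5 (edgeR's glmTreat, adjusted p = 0.278).

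CD200 is a membrane glycoprotein made by activated T cells, B cells, neurons and endothelium. Cd200 (chr16:45382111-45409060) was at 77.5, 76.3 and 62.5 CPM in WT and at 31.6, 32.2 and 28.1 CPM in KO. All KO samples were below all WT samples, and the mean fell to 42.5% of WT. The log2 fold change was -1.23 (with SE 0.11, edgeR adjusted p = 0.000164). B cells express both Btla and Cd200, and the summed level of 7 of the 8 listed B cell markers was 19.8 to 23.3 CPM in WT and 13.4 to 14.5 CPM in KO. Among them Cd79b fell (log2 fold change -1.26), while Ms4a1 averaged 1.04 ± 0.19 CPM in WT and 0.949 ± 0.368 CPM in KO (SD, n = 3 per group). The part of B cells in the fall of Btla and Cd200 was not tested.

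Tox (chr4:6686353-6991557) fell the most of the 10 genes. Its product, TOX, is required for the development of CD4+ T cells in the thymus and for the exhausted state of CD8+ T cells. The 3 WT samples gave 133, 138 and 109.5 CPM and the 3 KO samples 42.6, 46.2 and 47.8 CPM. No WT sample came near the KO samples, and the KO mean was 35.8% of the WT mean (log2 fold change -1.48 with an SE of 0.10, edgeR adjusted p = 6e-05). An antisense gene, Gm11802, shares 260 of the 7609 exon bases of Tox.

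Tox2 (chr2:163203058-163324172), the closest relative of Tox among the 10, was not called. It was at 20.2, 20.1 and 12.2 CPM in WT and at 15.4, 12.3 and 13.9 CPM in KO, with WT sample 3 below all KO samples. The log2 fold change of -0.34 (with SE 0.20, edgeR adjusted p = 0.232) was within the spread of the samples. Leaving out WT sample 3 gave -0.54 (edgeR adjusted p = 0.0014), still short of the 1.5-fold limit. The log2 ratio of Tox to Tox2 counts within each sample was 2.73, 2.78 and 3.16 in WT and 1.47, 1.91 and 1.78 in KO, a difference of -1.17. An exact permutation test (two-sided) gave p = 0.1, the smallest p that 3 samples against 3 allow, and 0.2 after Benjamini-Hochberg adjustment over 4 gene pairs.

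Ctla4 (chr1:60909025-60915832) had a WT mean that was set by 1 library. It was at 507, 509 and 920.5 CPM in WT and at 505, 479 and 477 CPM in KO. WT samples 1 and 2 lay just above the KO samples, and WT sample 3 was 1.81 times their mean. The log2 fold change was -0.41 (with SE 0.22, edgeR adjusted p = 0.185), and without WT sample 3 it was -0.065 (edgeR adjusted p = 0.296).

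Lag3 (chr6:124904359-124912434), whose product resembles CD4, was not called either. Its values were 41.5, 40.8 and 63.7 CPM in WT and 62.2, 66.4 and 69.1 CPM in KO, so that WT sample 3 lay among the KO samples. The log2 fold change of 0.44 (with SE 0.17, edgeR adjusted p = 0.0769) stayed under the 1.5-fold limit. Without WT sample 3 it was 0.67 (edgeR adjusted p = 2.6e-06), and Lag3 was then called higher.

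Pdcd1 (chr1:94038305-94052553) encodes PD-1, which recruits SHP-2 to its tail. Its values were 85.5, 81.8 and 45.3 CPM in WT and 69.4, 62.1 and 62.8 CPM in KO. The KO samples lay between WT sample 3 and the other WT samples. The log2 fold change was -0.13 (with SE 0.22, edgeR adjusted p = 0.676), it was -0.37 without WT sample 3 (edgeR adjusted p = 0.000437, fold under 1.5), and it was 0.028 without WT sample 1.

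Tigit (chr16:43626137-43665125), by contrast, differed little between any of the samples. It was at 91.6, 92.2 and 81.3 CPM in WT and at 84.0, 75 and 74.5 CPM in KO, and the groups overlapped. Its log2 fold change was -0.18 (with SE 0.08, edgeR adjusted p = 0.119), and -0.24 without WT sample 3 (edgeR adjusted p = 0.00866, fold under 1.5).

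Without WT sample 3 the other called genes had log2 fold changes of 0.97 for Cd274, -0.73 for Btla, -1.33 for Cd200 and -1.58 for Tox, and each was called.

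**Figure D2:**
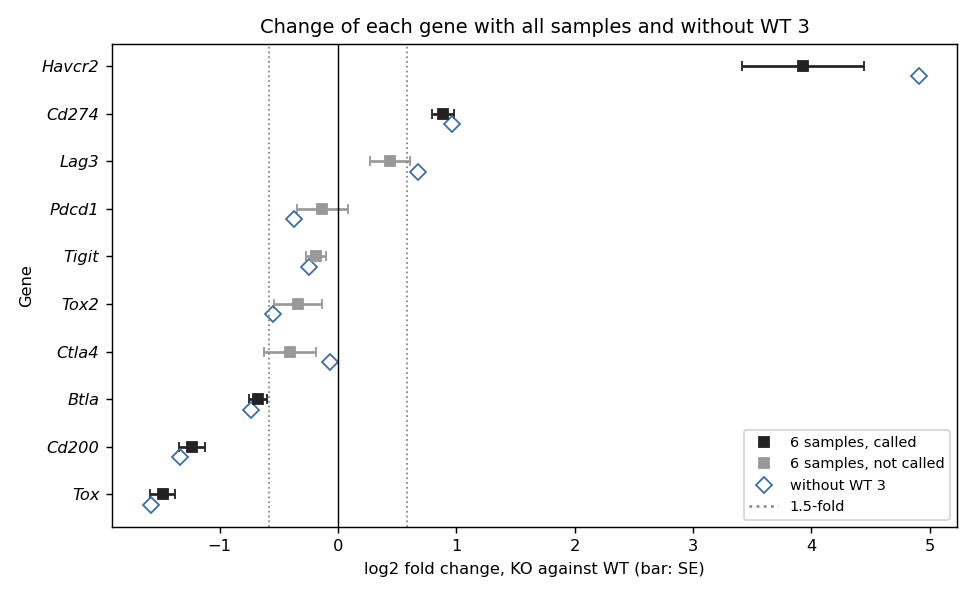
Log2 fold change of KO against WT for the 10 genes with all 6 samples (squares, with the SE as a bar) and without WT sample 3 (open diamonds), with dotted lines at a fold of 1.5. The 5 called genes lie outside the dotted lines in both fits, Lag3 crosses the line without WT sample 3 (0.67), and Ctla4 moves to -0.065.

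To compare the genes with each other, counts were divided by exon length and scaled to the same total in each sample (TPM). Ctla4 had the highest level in both genotypes, with 1039 ± 344 TPM in WT and 775 ± 26.6 TPM in KO (SD, n = 3 per group), above 99.1% and 98.7% of genes. In WT the order of mean levels was then Tigit (364 TPM), Btla (247), Pdcd1 (139.9), Cd274 (101.8), Lag3 (86.8), Cd200 (82.3), Tox (63.3), Tox2 (19.6) and Havcr2 (8.14). The ranges of Pdcd1, Cd274, Lag3, Cd200 and Tox overlapped between neighbours in that order, as did those of Tox2 and Havcr2.

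Among the KO samples the order was Ctla4, Tigit (314 TPM), Cd274 (185), Btla (152), Pdcd1 (124), Havcr2 (123), Lag3 (116), Cd200 (34.2), Tox (22.2) and Tox2 (15.1). Only the ranges of Pdcd1 and Havcr2 and of Havcr2 and Lag3 overlapped between neighbours there. Havcr2 thus moved from the lowest of the 10 levels to the level of Pdcd1 and Lag3, from 32.7% to 88.9% as a percentile among all genes. The summed level of the 10 genes was 2050, 1977 and 2430 TPM in WT and 1938, 1846 and 1800.5 TPM in KO. Ctla4 supplied 41.8%, 41.7% and 59.1% of it in WT and 41.6%, 41.4% and 42.0% in KO, and its share stood apart in WT sample 3.

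**Figure D3:**
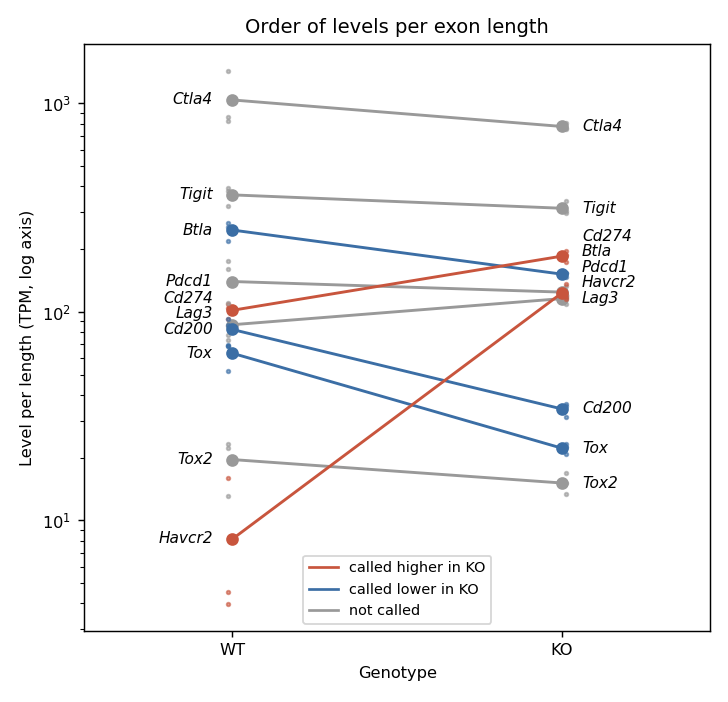
Mean level per exon length of each gene in WT and KO, in TPM on a log axis, with the 3 samples of each group as small points and a line joining the means. Havcr2 climbs from 8.14 to 123 TPM, to the levels of Pdcd1 (124) and Lag3 (116), while Ctla4 remains the highest.

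The 250 bases upstream of an annotated RefSeq transcription start (GRCm38.p6) are shown for the member that rose most and for a member that fell. Motif matches are in capitals. The RefSeq table held such windows for 8 of the 10 genes, without Tox and Lag3. Windows of Btla, Cd274, Tigit and Tox2 lie wholly or partly inside their gene spans. The Cd200 window also reaches into its span, which ends at 45409060. Havcr2 lies on the plus strand (window chr11:46454681-46454930) and Cd200 on the minus strand (window chr16:45409054-45409303), both written 5′ to 3′ toward the start.
Havcr2: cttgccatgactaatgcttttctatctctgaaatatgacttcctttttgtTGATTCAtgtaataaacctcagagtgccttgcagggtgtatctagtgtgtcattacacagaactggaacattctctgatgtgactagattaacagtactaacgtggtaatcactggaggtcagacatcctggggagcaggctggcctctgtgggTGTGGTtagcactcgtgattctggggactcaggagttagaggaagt
Cd200: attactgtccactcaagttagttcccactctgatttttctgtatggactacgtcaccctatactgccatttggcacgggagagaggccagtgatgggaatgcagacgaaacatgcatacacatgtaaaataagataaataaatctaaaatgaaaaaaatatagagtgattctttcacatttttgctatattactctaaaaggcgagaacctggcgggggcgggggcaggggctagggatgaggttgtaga
The letters searched on both strands, chosen after the values were seen, were TTCNNNGAA (STAT sites, GAS), the interferon-stimulated response element (ISRE), AGGTGTGA (T-box), TGTGGT (Runx), TGANTCA (AP-1) and GGAAA (the NFAT core, which can overlap the GAS and ISRE letters). The Havcr2 window held an AP-1 match beginning at -200 and a Runx match at -46 from the start, and 6.87% and 14.2% of 27025 gene promoters of the same length held these letters. The Cd200 window held none of the 6 motifs. A Runx match was also found in Btla at -178 and in Tigit at -140. An NFAT core, which 55.6% of promoters hold, was found in the windows of Cd274, Ctla4, Pdcd1 and Tigit. Of the several start sites of Tox2, 2 adjacent ones held the same NFAT letters (-117 and -118). These matches describe letters and not bound sites.

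Several of the 10 genes lie beside their partners in the genome. Ctla4 sits 135.7 kb from Cd28 and 44.94 kb from Icos, which encodes another costimulatory receptor of the CD28 family. Cd28 averaged 257 ± 12.4 CPM in WT and 199 ± 1.83 CPM in KO, a log2 fold change of -0.37 (with SE 0.06, edgeR adjusted p = 0.00334) under the 1.5-fold limit, while Icos averaged 395 ± 95.3 and 472 ± 18.2 CPM (log2 fold change 0.26 with an SE of 0.15, edgeR adjusted p = 0.223). Icos was at 330, 350 and 504 CPM in WT samples 1 to 3. Without WT sample 3 its log2 fold change was 0.47 (edgeR adjusted p = 4.47e-06), higher in KO but under the 1.5-fold limit. The log2 ratio of Ctla4 to Cd28 counts was 1.06, 0.942 and 1.80 in WT and 1.35, 1.25 and 1.27 in KO, with a mean difference of 0.021 and p = 1 in the exact permutation test. For Ctla4 to Icos it was 0.62, 0.54 and 0.87 in WT and 0.16, 0.0048 and -0.029 in KO. All KO values of that ratio were below all WT values, with a difference of -0.63 (exact permutation p = 0.1, adjusted 0.2).

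Cd274 lies 22.82 kb from Pdcd1lg2, which encodes the other PD-1 ligand. Pdcd1lg2 was at 21.7, 19.6 and 11.1 CPM in WT and at 16.4, 16.6 and 18.1 CPM in KO, and its log2 fold change was -0.04 (with SE 0.23, edgeR adjusted p = 0.921). The log2 ratio of Cd274 to Pdcd1lg2 counts, added after seeing the data, was 2.14, 2.17 and 3.30 in WT and 3.47, 3.52 and 3.23 in KO (exact permutation p = 0.2), so the groups overlapped through WT sample 3. On the other side of Cd274, neighbours picked by position after their values were seen moved in both directions: Jak2 (log2 fold change 0.89) and Insl6 (2.57) rose, and Plgrkt (-0.63), whose gene span overlaps that of Cd274, fell, although without KO sample 2 Plgrkt (-0.57) was under the 1.5-fold limit. Between Btla and Cd200, 129.2 kb apart, no other tested gene was found. On the far side of Btla, Slc35a5 (log2 fold change -0.72, edgeR adjusted p = 0.00324) and the low-level Ccdc80 (-1.37, edgeR adjusted p = 0.0932) were also called lower. The nearest tested gene on that side, Atg3, went the other way (0.27, edgeR adjusted p = 0.0429) but stayed under the 1.5-fold limit.

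**Figure D4:**
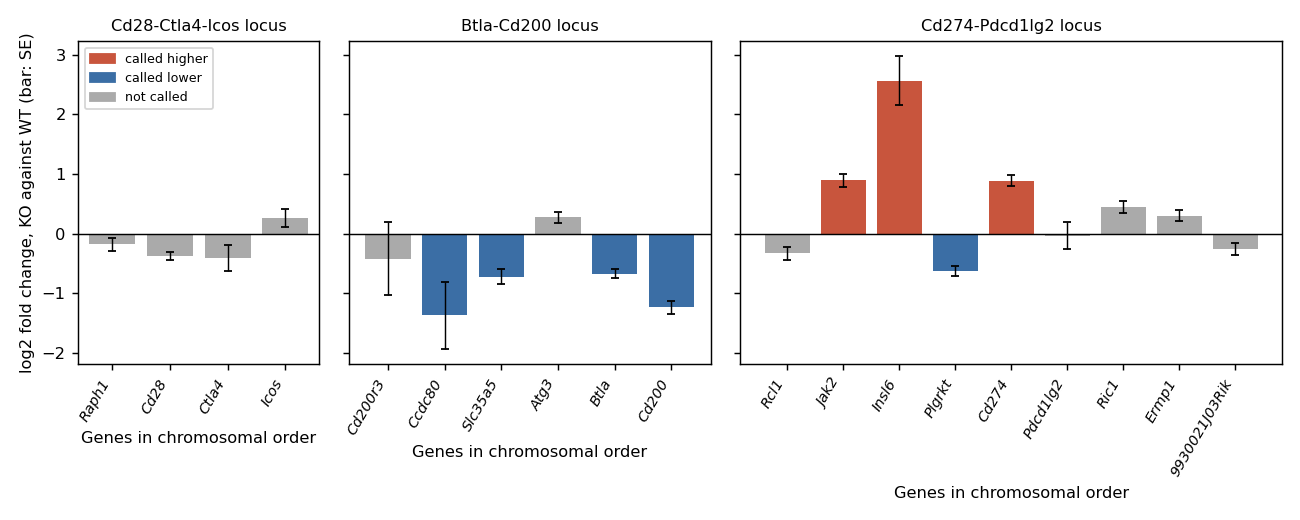
Log2 fold change of KO against WT, with SE, for the tested genes around Ctla4, around Btla and Cd200, and around Cd274, in chromosomal order without scale. Called genes are in red (higher) or blue (lower). No gene is called in the Ctla4 panel, Btla and Cd200 are lower as are Slc35a5 (-0.72) and Ccdc80 (-1.37), and Cd274 is higher between Plgrkt (-0.63) and Pdcd1lg2 (-0.04).

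The ligands and partner receptors of the 10 genes were then examined. Of 13 tested, 1 rose, 4 fell and 8 were not called, where 11.9% of all genes rose and 12.5% fell. The median log2 fold change of the 13 was -0.27. Lgals3, which encodes galectin-3, a carbohydrate-binding protein reported as a LAG-3 ligand, was at 18.3, 14.7 and 16.9 CPM in WT and at 268, 269 and 281 CPM in KO. The groups were far apart (log2 fold change 4.03 with an SE of 0.10, edgeR adjusted p = 1.06e-06). Myeloid cells also make galectin-3, and the part of their RNA in this rise was not tested.

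Cd86, a ligand that CTLA-4 and CD28 share, was at 40.3, 37.6 and 26.0 CPM in WT and at 16.1, 14.3 and 14.2 CPM in KO (a log2 fold change of -1.22 with an SE of 0.17, edgeR adjusted p = 0.00113). Its companion Cd80 was at 6.82, 6.88 and 13.1 CPM in WT and at 12.2, 13.6 and 11.7 CPM in KO, with WT sample 3 among the KO samples. The log2 fold change of Cd80 was 0.49 (with SE 0.26, edgeR adjusted p = 0.178), and without WT sample 3 it was 0.87 and called higher. Of these CTLA-4 ligands, then, Cd86 fell and the change of Cd80 turned on 1 WT library.

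Cd200r1, the receptor for CD200, fell with its ligand, from 31.99 ± 7.58 to 17.1 ± 0.80 CPM (log2 fold change -0.90 with an SE of 0.17, edgeR adjusted p = 0.00454). Tnfrsf14, the BTLA partner HVEM, was at 54.2, 55.4 and 34.7 CPM in WT and at 31.7, 31.3 and 30.3 CPM in KO, a log2 fold change of -0.63 (with SE 0.17, edgeR adjusted p = 0.0214) that was no longer called without WT sample 1 (-0.53) or WT sample 2 (-0.52). With all samples, ligand and receptor thus fell on both axes, Btla with Tnfrsf14 and Cd200 with Cd200r1. Fgl1, another reported LAG-3 ligand, was called lower but was near the counting limit, at 0.42 to 0.85 CPM in WT and 0.057 to 0.17 CPM in KO.

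Among the ligands of TIGIT and TIM-3 nothing was called. Pvr averaged 51.6 ± 6.87 and 51.4 ± 2.37 CPM in WT and KO, Nectin2 1.82 ± 0.58 and 1.44 ± 0.22 CPM, and Lgals9 165 ± 35.3 and 137 ± 4.46 CPM (SD, n = 3 per group). Their log2 fold changes were -0.0067, -0.33 and -0.27 (with SE 0.11, 0.36 and 0.14). The rest of the list, Hmgb1, Ceacam1 and Nectin3, was not called either. Hmgb1 rose without overlap from 322 ± 44.0 to 427 ± 3.64 CPM but under the 1.5-fold limit (log2 fold change 0.41, edgeR adjusted p = 0.0141). Ceacam1 (-0.87, edgeR adjusted p = 0.166) and Nectin3 (0.95, edgeR adjusted p = 0.235) were at low levels.

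The 7 costimulatory receptors tested had a median log2 fold change of -0.30. None of them was called by edgeR or by DESeq2, beside 24.4% of all genes called by edgeR. An unadjusted p under 0.05 was reached by 4 of them, each with a fold under 1.5, and 3 of these had an edgeR adjusted p below 0.05. Cd28 (log2 fold change -0.37, edgeR adjusted p = 0.00334) and Slamf6 (-0.44, edgeR adjusted p = 0.00216) were lower. Cd2 (0.29, edgeR adjusted p = 0.0168) was higher. Cd226, the costimulatory counterpart of Tigit, averaged 50.2 ± 7.58 CPM in WT and 40.7 ± 4.44 CPM in KO (a log2 fold change of -0.30 with an SE of 0.13, edgeR adjusted p = 0.101). The log2 ratio of Tigit to Cd226 counts was 1.05, 0.65 and 0.77 in WT and 1.18, 0.72 and 0.92 in KO. These ranges overlapped (difference 0.12, exact permutation p = 0.6, adjusted 0.8).

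Other co-inhibitory receptors changed in both directions. Of 14 rows tested for 13 genes, 4 rose, 6 fell and 4 were not called, beside 24.4% of all genes called in either direction. The median log2 fold change of the 14 rows was -0.52. Lilrb4a, an inhibitory receptor of myeloid cells and some T cells, stood in 2 rows with log2 fold changes of 4.70 and 3.47. It is uncertain because it shares 1846 of 5227 exon bases with the gene Gm49339. Its more abundant row was at 1.11, 1.16 and 8.74 CPM in WT and at 42.3, 41.2 and 38.2 CPM in KO, with WT sample 3 above the other WT samples as it was for Havcr2. Without that sample the log2 fold changes of the rows were 7.57 and 5.15.

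Lair1, a collagen receptor, rose from 3.39 ± 0.45 to 14.5 ± 1.94 CPM (log2 fold change 2.09), and Cd22, best known from B cells, rose at a low level from 4.18 ± 1.32 to 8.40 ± 1.11 CPM (1.01). Against these, Cd72, also known from B cells, fell from 18.5 ± 3.60 to 4.04 ± 0.55 CPM (log2 fold change -2.19), Cd101 fell from 50.6 ± 12.7 to 15.3 ± 2.42 CPM (-1.72), and Klrg1, a cadherin receptor that marks effector Tregs, fell from 29.8 ± 3.28 to 15.3 ± 0.71 CPM (-0.96). The other called receptors, Cd96, Cd5 and Cd160, were lower, and Cd160 (log2 fold change -0.68) was no longer called with a replicate block (-0.62) or on leaving out any sample other than WT sample 3. Cd72 shares 1423 of 3422 exon bases with Tesk1 and is therefore uncertain.

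Next, 24 genes for proteins that carry the inhibitory signal or move the receptors were tested, with a list median log2 fold change of 0.01. Of these, 2 rose, 2 fell and 20 were not called, beside 24.4% of all genes called. Pag1, a membrane adaptor that holds the kinase CSK, rose from 128 ± 6.09 to 247.5 ± 3.44 CPM (log2 fold change 0.95), and Dok2, an adaptor that dampens receptor signalling, from 149 ± 7.28 to 244 ± 5.93 CPM (0.71). The SLAM adaptor Sh2d1a fell from 43.2 ± 5.39 to 25.3 ± 2.12 CPM (log2 fold change -0.77) and Rasa1, a Ras inactivator that binds DOK proteins, from 191 ± 10.9 to 118 ± 2.24 CPM (-0.69). Sh2d1a is uncertain, with 1465 of 5505 exon bases shared with Tenm1.

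**Figure D5:**
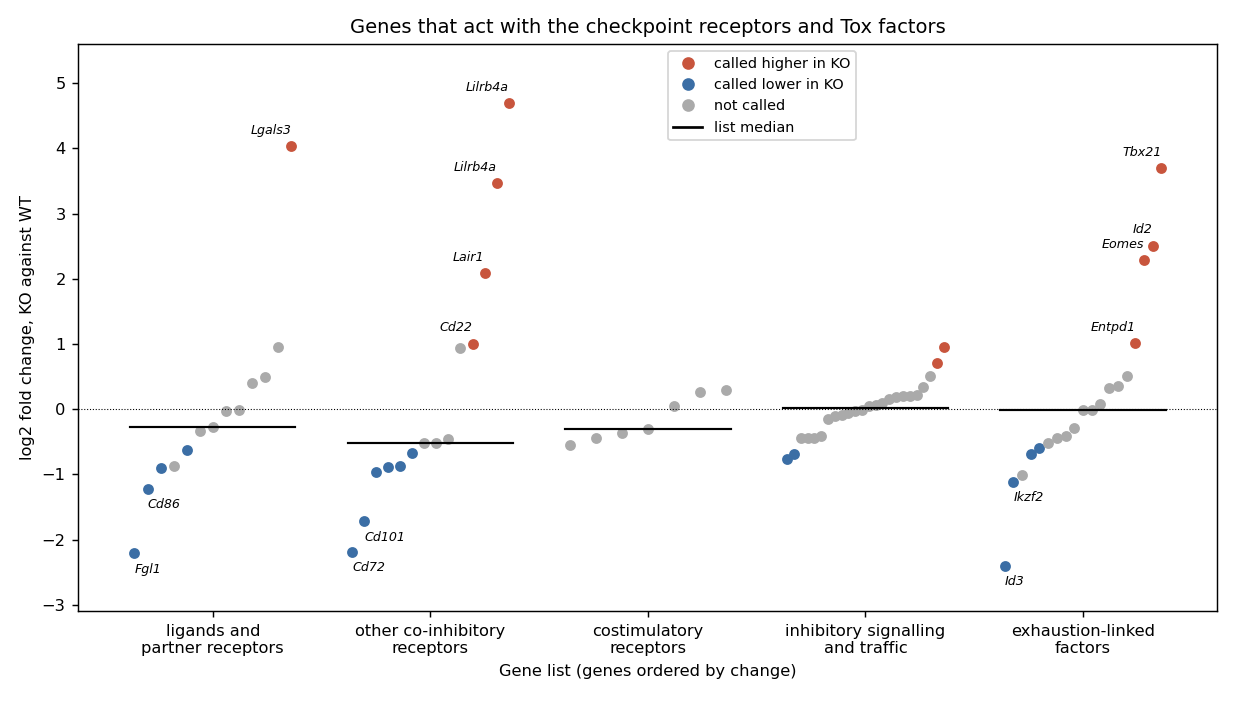
Log2 fold change of KO against WT for each tested row of 5 gene lists, ordered within a list, with called genes in colour and the list median as a bar. The signalling list clusters around 0 (median 0.01), while the co-inhibitory receptors and the exhaustion-linked factors hold called genes on both sides.

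The 19 tested factors that work with TOX or mark exhausted T cells had a median log2 fold change of -0.02. Of these, 4 rose, 4 fell and 11 were not called, beside 11.9% of all genes higher and 12.5% lower. Tbx21, the Th1 factor T-bet, was at 6.00, 4.99 and 5.53 CPM in WT and at 70.8, 74.2 and 68.8 CPM in KO (a log2 fold change of 3.69 with an SE of 0.10, edgeR adjusted p = 1.31e-06). Its samples were tight in both groups. Its relative Eomes rose from 2.31 ± 0.81 to 11.3 ± 0.24 CPM (log2 fold change 2.29) and stands in the NK marker list as well. The paired inhibitors of E proteins moved oppositely, with Id2 rising from 37.8 ± 14.6 to 215 ± 7.71 CPM (log2 fold change 2.51) and Id3 falling from 73.4 ± 18.4 to 13.9 ± 1.43 CPM (-2.40).

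Entpd1, the ectonucleotidase CD39, rose (log2 fold change 1.01) and Ikzf2, the Treg factor Helios, fell (-1.11). The remaining called genes, Nr4a3, an NR4A nuclear receptor induced by antigen receptor signals, and Tcf7, the factor TCF-1 of resting and stem-like T cells, were lower, and Nr4a3 (log2 fold change -0.60) came under the 1.5-fold limit without WT sample 1 (-0.53) or KO sample 3 (-0.57).

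For each called gene the tested gene with the most similar profile was sought, as the smallest root-mean-square distance of mean-centred log2 CPM over the 6 samples. These were Camk2d for Btla (0.041), Zfr2 for Cd200 (0.033), Crybg3 for Cd274 (0.044), Egr2 for Tox (0.055) and Ifi211 for Havcr2 (0.20). The last distance was the widest, the log2 fold change of Ifi211, 3.55 with all samples, was 4.72 without WT sample 3, and Ifi211 belongs to a family of near-identical genes and is uncertain, as is Crybg3, which shares 1185 of 12711 exon bases with Riox2. All distances were taken over 6 samples in 2 groups, so they are small for genes with alike genotype differences.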

How the data were processed

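Total RNA of sorted Tregs was sequenced after TruSeq library preparation. According to the study, SOAPnuke filtered the reads, HISAT2 aligned them to mm10 with 1 alignment kept per read, and StringTie quantified them, while HISAT2 and DESeq2 were also named in the submitters' processing notes. The authors deposited whole-number counts per gene for 6 samples, with no normalization. How whole numbers were obtained, the annotation, and the use of strand were not given in the sources used here. The smallest row sum was 60, so rows of low counts had been removed, and reads of near-identical genes may be misassigned.

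Counts were tested with edgeR 4.0.16 (R 4.3.3): filterByExpr with a minimum count of 10, which removed 115 of 13709 rows and none of the 10 members, TMM scaling (factors 0.980 to 1.04), and the two-sided quasi-likelihood F-test with no covariate, adjusted by the Benjamini-Hochberg method over 13594 genes. SE was the log2 fold change divided by the square root of F. Simulated counts with known changes were used to check the code. Within-sample ratios (0.5 added to each count) were compared with exact permutation tests over samples. Exon lengths, from GENCODE M21, covered 97.87% of rows, and TPM was computed from the deposited counts. Positions and upstream windows came from RefSeq on GRCm38.p6, the assembly of mm10. Protein sequences were not analysed here.

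The members and lists were chosen with earlier results of these data known. Named were the 10 members, Zfp335, up to 6 called genes of each partner list by size of change, 11 set partners (Cd28, Icos, Cd226, Cd80, Cd86, Pdcd1lg2, Tnfrsf14, Pvr, Nectin2, Lgals9, Cd200r1), up to 3 markers above 1 CPM of each other cell type, and the gene of most similar profile to each called member. Further list genes, marker genes and locus neighbours, called or not, were named after their values were seen. Of the other marker lists, the summed CD8 markers were at 9.32 to 13.2 CPM in WT and 12.0 to 12.7 CPM in KO, erythroid at 23.3 to 101 and 43.2 to 49.8, stromal and endothelial, nearly all Pecam1, at 192 to 206 and 137 to 145, neutrophil at 0.054 to 0.58 and 4.51 to 7.25, and Treg and T cell at 3725 to 4349 and 3101 to 3186. No 2 samples agreed within sampling noise. Alternatives were DESeq2 1.42.0, other scalings, filters and call rules, a replicate block, and leaving out each sample.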

Additional observations from a re-analysis of the deposited data

How the results depend on the processing

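The 5 members called were called in every fit that left out 1 sample, and the number of members called was 5 to 6 over those fits and 4 to 6 over all alternatives. Members kept their direction under every alternative except Pdcd1, which ran from -0.37 to 0.028 on the log2 scale when 1 sample was left out. Among the partner genes, Pdcd1lg2 changed sign under the replicate block (0.015) and when 1 sample was left out (-0.28 to 0.15), and Pvr under DESeq2 (0.012), RLE size factors (0.012), the filter of at least 10 counts in every sample (0.0027), the replicate block (0.00081) and the omission of 1 sample (-0.11 to 0.049), all near 0. Btla was the member lost when the fold itself was tested against 1.5 (glmTreat adjusted p = 0.278). Over all genes, 3318 were called, 2867 to 3667 when 1 sample was left out, 5244 when only an adjusted p below 0.05 was asked, and 1402 with glmTreat. These last settings gave 3 costimulatory, 9 signalling and 13 exhaustion-linked genes without the fold limit, and 2 ligands and partner receptors and 1 signalling gene with glmTreat, by the construction of the rule. Without WT sample 3, 1 costimulatory receptor was called (0 to 1 over the samples left out). DESeq2 called 3370 genes, 3225 of them shared with edgeR. Library totals alone moved the median of all genes from -0.04 to -0.07.

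The replicate numbers did not pair the samples: deviations of same-numbered WT and KO samples correlated at 0.038, 0.040 and -0.012. With the replicate block 3190 genes were called, of which 3100 were shared, and the number of members called was 5. Depth did not limit the members, but Fgl1 and the marker genes under 1 CPM rest on few counts.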
